A study of Mus musculus with 6 samples.

Results

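The 38 genes described here act in homologous repair, in the Fanconi anemia pathway and in the checkpoint kinase cascades, and they were chosen by symbol from the 50763 gene symbols of a count table of mouse testis RNA. They comprise 11 genes of the ATR side, 5 of the ATM side, 6 Fanconi genes and 16 genes of homologous repair. The last group is made up of 6 resection and RPA genes, 3 genes of the BRCA1 complex, 2 RAD54 translocases and 5 other repair genes. Whole testes were taken on postnatal day 14 from wild-type mice (WT) and from mice that carry a conditional knockout of Rif1 in germ cells before meiosis (sKO). Rif1 encodes a chromatin protein of replication timing and of repair pathway choice. Poly(A) RNA was sequenced from 3 libraries of each genotype. The sources used here give neither the Cre driver nor the deleted exons, and every library holds the somatic cells of the testis beside its germ cells. The labels do not say whether each library is a different mouse, and each p-value therefore reflects only the variation among these libraries, which may be technical.

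Meiotic cells cut their own chromosomes and mend the breaks with homologous recombination. Break ends are resected to single strands and coated by RPA, and the BRCA1 complex and its partners promote the later steps of strand exchange. Double-strand breaks are sensed by the MRE11-RAD50-NBN complex, which recruits the kinase ATM, whereas RPA-coated strands recruit ATR with ATRIP, and the RAD9-RAD1-HUS1 clamp and TOPBP1 activate it. In spermatocytes ATR also acts on unsynapsed chromosomes, including the X and Y chromosomes. The Fanconi pathway handles DNA crosslinks and stalled forks through the monoubiquitinated pair FANCD2 and FANCI, and it contributes to meiotic silencing in the testis.

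Total counts lay between 15941672 and 18296594 per library, and 3 counts are worth between 0.165 and 0.187 CPM (a count divided by the library's normalized total, on a common scale). Rif1 had 96.5, 83.7 and 129 CPM in the 3 WT libraries, in their numbered order, against 42, 46.4 and 49.2 CPM in the 3 of sKO, a log2 fold change of -1.17 (SE 0.15, 95% interval -1.50 to -0.83) with an adjusted p of 0.0145 in edgeR's quasi-likelihood test. That call was lost without WT library 2 (adjusted p = 0.137), without sKO library 1 (adjusted p = 0.0618) and without sKO library 2 (adjusted p = 0.12). In these fits, in the same order, the log2 fold change was -1.30, -1.13 and -1.17. The unadjusted edgeR p-values were 8.66e-06, 5.12e-05 and 9.39e-05, against 1.08e-05 with all libraries. Over 18860 genes tested, 246 passed an adjusted p of 0.05, 240 of them lower in sKO and 6 higher, and edgeR called 0 genes without WT library 2, sKO library 1 or sKO library 2. The libraries of a group differed beyond counting error, with a chi-square per degree of freedom of 4.62 to 22.8 between pairs. Germ cell and Sertoli cell markers were present in all 6 libraries, and 5 of 6 spermatid markers stayed under 1 CPM throughout. The first sKO library stood apart with 146 CPM summed over 4 epididymis markers, against 1.26 to 16.3 CPM in the other libraries.

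None of the 37 members that could be tested passed the adjusted threshold in edgeR, against 1.30% of all genes tested (1.27% lower and 0.0318% higher). At an unadjusted p under 0.05, 6 members were lower in sKO and 0 were higher. The lower members were Atr, Topbp1, Rad9b, Fancd2, Fanci and Rad54b, and they make up 16.2% of the members tested, against 8.54% of all genes lower and 5.06% higher at that p. That count of 6 was 3 without sKO library 2 (8.11% of members against 6.27% of all genes lower) and 11 without sKO library 3 (29.7% against 11.3%). Without both libraries numbered 1, a choice made after seeing the data, 2 members (5.41%) were lower at that p against 5.73% of all genes, so the members' share was then no higher than the background. DESeq2 called 2 members lower, Atr and Rad9b, where it called 3.82% of all genes lower and 0.297% higher. limma-voom called 0 members and 0.0795% of all genes, all of those lower. Atrip was not tested, because its counts were 0 in 5 libraries and 1 in WT library 3.

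Estimates were small. The median log2 fold change over the members was -0.08, with a range from -0.52 to 0.35, beside a median of 0.03 over all genes. The members' median was -0.02 without WT library 1, -0.04 without sKO library 2, -0.14 without sKO library 3 and -0.03 without both libraries numbered 1. In 25 of 37 members (67.6%) the estimate was lower in sKO, against 44.7% of all genes. Every sKO library lay below every WT library for 10 members (27%), against 10.7% of all genes: Rpa2, Brca1, Rad54b, Atr, Topbp1, Rad9b, Rad1, Fanca, Fancd2 and Fanci. Exo1 and Rad9a were the 2 members with every sKO library above every WT library, a pattern found in 9.58% of all genes, and groups without overlap in either direction made up 20.2% of all genes. Together the members took 0.234, 0.207 and 0.213% of the counts in WT, library by library, and 0.188, 0.181 and 0.207% in sKO.

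**Figure D1:**
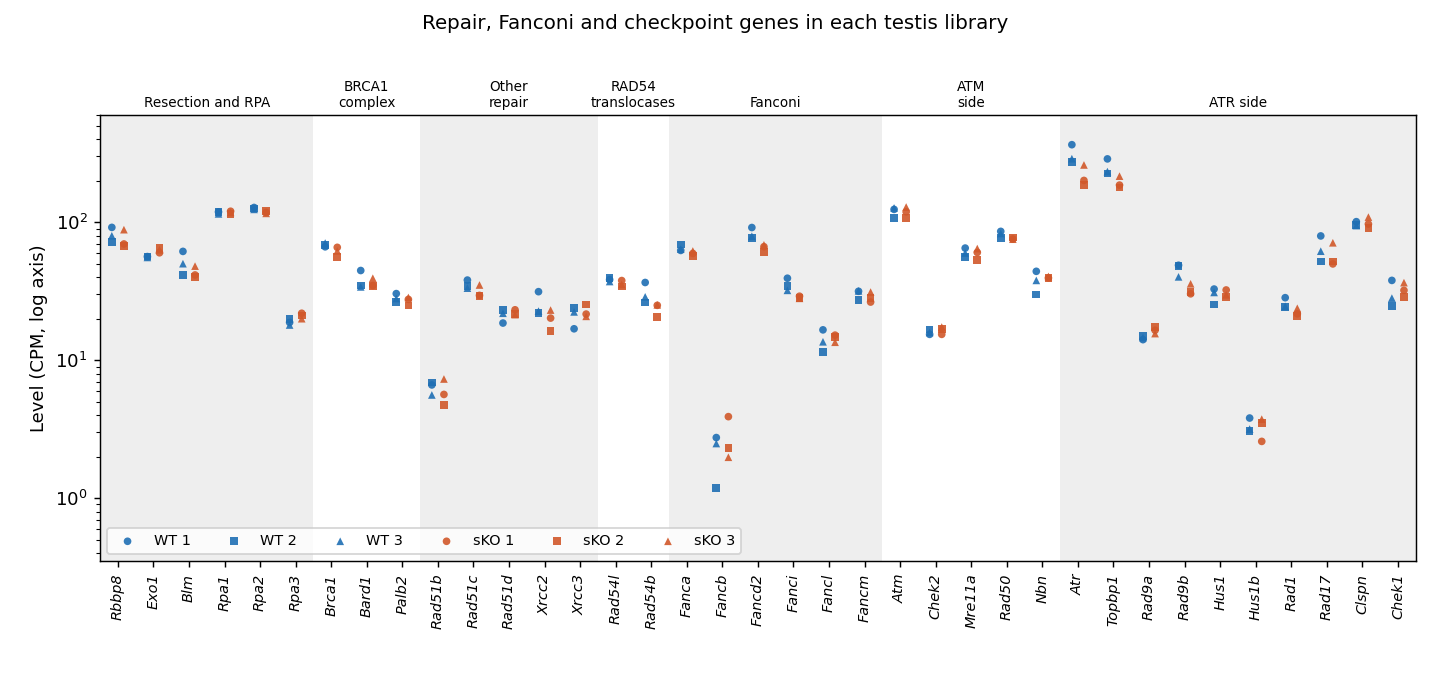
Level of the 37 tested genes in each library, in CPM on a log axis, with WT in blue on the left and sKO in orange on the right of each gene and 1 point per library. Levels run from 1.18 CPM for Fancb in WT library 2 to 365 CPM for Atr in WT library 1, and the point clouds of most genes overlap between the genotypes.

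**Figure D2:**
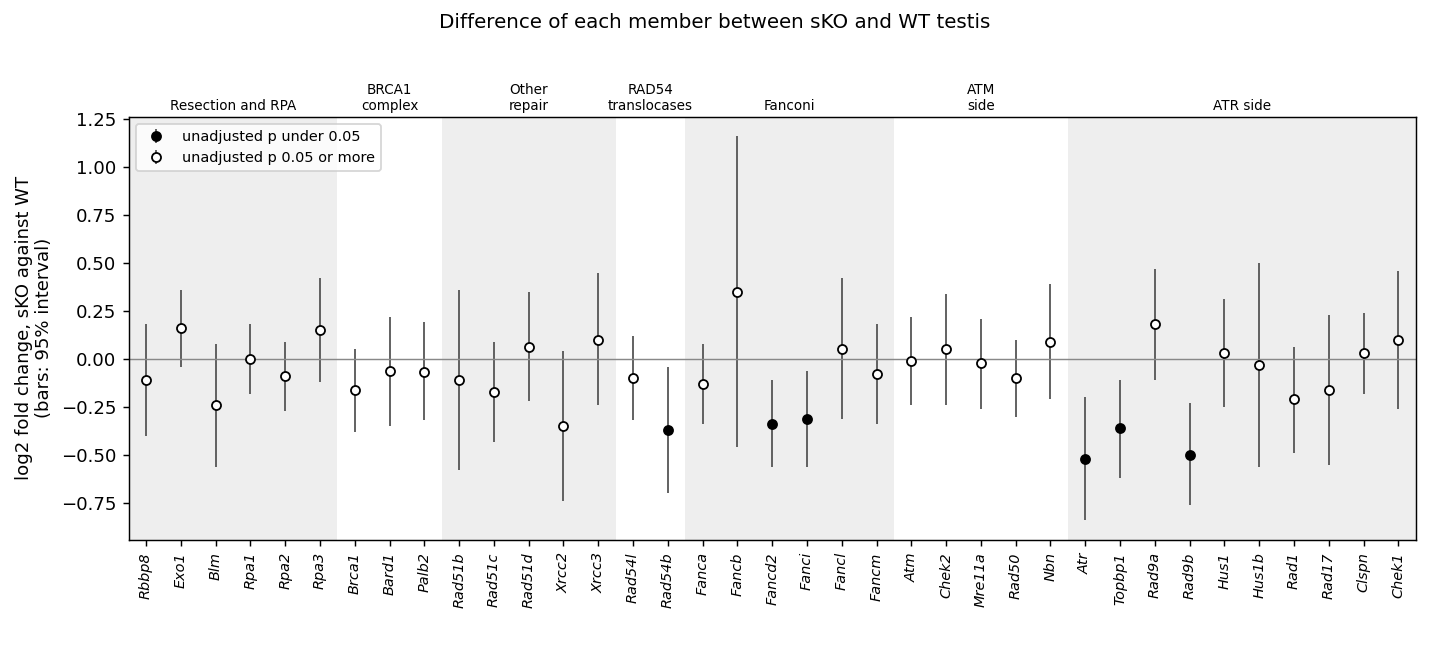
Log2 fold change of each tested gene in sKO against WT from edgeR, with 95% intervals and the genes grouped by role. The 6 filled points, with an unadjusted p under 0.05, lie between -0.52 for Atr and -0.31 for Fanci, and the ATM-side estimates lie between -0.10 and 0.09.

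On the ATR side, the kinase itself had the lowest estimate of the members. Atr was measured at 365, 273 and 289 CPM in the WT libraries, numbered 1 to 3, and at 201, 187 and 260.3 CPM in those of sKO. The groups did not overlap, although sKO library 3 came close to WT library 2. The log2 fold change was -0.52 (SE 0.14, 95% interval -0.84 to -0.20), with an unadjusted p of 0.00475, an edgeR adjusted p of 0.123 and a DESeq2 adjusted p of 0.0173. Without sKO library 3 the edgeR adjusted p was 0.0166, and over the 6 fits that each left out 1 library the log2 fold change ran from -0.70 to -0.38. In a bulk sample, fewer cells of a type and less RNA per cell cannot be told apart.

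Topbp1, the activator of ATR, stood at 288, 226 and 233 CPM in the WT libraries and at 186, 179 and 216 CPM in the sKO libraries. As for Atr, WT library 1 was the highest of its group and sKO library 3 the highest of its own, and the groups did not overlap. Its log2 fold change was -0.36 (SE 0.12, 95% interval -0.62 to -0.11), with an adjusted p of 0.181 in edgeR and 0.0834 in DESeq2. Across the fits that left out 1 library it ranged from -0.48 to -0.24, and the adjusted p did not go below 0.0533.

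The clamp that loads beside ATR has paralogous subunits, and among their genes only Rad9b had a 95% interval with both ends negative. Rad9b, a RAD9 paralog, stood at 48.8, 48.4 and 40.2 CPM in the WT libraries and at 30.3, 31.2 and 35.8 CPM in the sKO libraries, with no overlap. The log2 fold change of Rad9b was -0.50 (SE 0.12, 95% interval -0.76 to -0.23), and its edgeR adjusted p of 0.0751 was the smallest among the members (unadjusted p = 0.00169). DESeq2 gave it an adjusted p of 0.0116, and edgeR called it without WT library 3 (adjusted p = 0.0475) and without sKO library 3 (adjusted p = 0.0305). Rad9a, the clamp subunit of somatic cells as well as germ cells, stood at 14.1, 15 and 14.6 CPM in WT and at 16.5, 17.4 and 15.6 CPM in sKO. Here the sKO libraries were the higher ones, with a log2 fold change of 0.18 (95% interval -0.11 to 0.47, adjusted p = 0.59 in edgeR).

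Rad1, the subunit common to the clamps, stood at 28.4, 24.2 and 24.6 CPM in the WT libraries and at 21.7, 21 and 23.8 CPM in the sKO libraries. The groups were separated by a narrow gap, and the log2 fold change was -0.21 (95% interval -0.49 to 0.06, edgeR adjusted p = 0.494). Hus1 was at 32.8, 25.3 and 31 CPM in WT and at 32.3, 28.6 and 29.8 CPM in sKO, a log2 fold change of 0.03 (95% interval -0.25 to 0.31). Its paralog Hus1b was scarce, with 3.81, 3.06 and 3.17 CPM in WT and 2.58, 3.51 and 3.74 CPM in sKO (log2 fold change -0.03, 95% interval -0.56 to 0.50). Both HUS1 genes thus overlapped between the genotypes, unlike Rad9b and Rad1. Rad17, which loads the clamp, averaged 64.4 ± 14 CPM (WT) and 57.6 ± 11.6 CPM (sKO; SD, n = 3 each), and its libraries ranged widely in both groups.

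Downstream of ATR, the mediator Clspn and the effector kinase Chek1 had estimates near 0. Clspn averaged 96.9 ± 3.44 CPM (WT) and 98.8 ± 9.12 CPM (sKO), a log2 fold change of 0.03. Chek1 was at 37.9, 24.7 and 28.2 CPM in the WT libraries and at 32.1, 28.8 and 36.5 CPM in the sKO libraries. WT library 1 held the highest and WT library 2 the lowest Chek1 level, so that the sKO range lay inside the WT range, and the log2 fold change was 0.10 (95% interval -0.26 to 0.46). Over the 10 tested ATR-side genes the median was -0.10, with 6 lower estimates. At an unadjusted p under 0.05, 3 (30%) were lower, against 8.54% of all genes, and edgeR called 0, against 1.30%. The ATR-side median was 0.04 without WT library 1 and -0.24 without sKO library 3, and lay between these values in the other fits without 1 library.

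Rad9b, Atr, Topbp1 and Fanci (a Fanconi gene described further on) are the 4 of the 6 members with an unadjusted p under 0.05 for which a RefSeq promoter window was matched. The letters around their annotated starts are shown beside those of Atm, whose estimate was near 0. The sequences are RefSeq promoter windows of 300 bases on GRCm38.p6, most of it upstream of the gene start, written 5′ to 3′ on the gene's strand. Capitals mark matches on either strand to 5 motifs: E2F-like TTTNNCGC, the CCAAT box CCAAT, MYB-like TAACNG, the X-box letters GTTGCC and the CRE letters TGACGT. Rad9b lies at chr5:122354156-122354455 on the minus strand, Atr at chr9:95857347-95857646 on the plus strand, Topbp1 at chr9:103305077-103305376 on the plus strand, Fanci at chr7:79392088-79392387 on the plus strand and Atm at chr9:53536622-53536921 on the minus strand.
Rad9b: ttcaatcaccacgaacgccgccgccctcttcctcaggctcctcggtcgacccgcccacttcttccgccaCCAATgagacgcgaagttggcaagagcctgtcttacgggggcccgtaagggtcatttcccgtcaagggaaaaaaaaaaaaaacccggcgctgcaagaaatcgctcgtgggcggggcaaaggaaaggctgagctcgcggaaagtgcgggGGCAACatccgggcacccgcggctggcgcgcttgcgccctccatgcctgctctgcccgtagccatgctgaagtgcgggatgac
Atr: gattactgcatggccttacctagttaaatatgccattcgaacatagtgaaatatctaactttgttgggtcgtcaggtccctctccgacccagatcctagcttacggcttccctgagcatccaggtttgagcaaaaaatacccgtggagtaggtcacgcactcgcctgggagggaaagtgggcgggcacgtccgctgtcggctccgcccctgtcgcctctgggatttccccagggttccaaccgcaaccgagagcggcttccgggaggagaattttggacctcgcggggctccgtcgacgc
Topbp1: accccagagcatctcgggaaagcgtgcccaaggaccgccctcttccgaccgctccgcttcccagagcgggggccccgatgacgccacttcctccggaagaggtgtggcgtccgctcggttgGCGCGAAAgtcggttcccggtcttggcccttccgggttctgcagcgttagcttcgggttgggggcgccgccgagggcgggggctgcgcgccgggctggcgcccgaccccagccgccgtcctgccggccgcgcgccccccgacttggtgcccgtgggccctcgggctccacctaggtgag
Fanci: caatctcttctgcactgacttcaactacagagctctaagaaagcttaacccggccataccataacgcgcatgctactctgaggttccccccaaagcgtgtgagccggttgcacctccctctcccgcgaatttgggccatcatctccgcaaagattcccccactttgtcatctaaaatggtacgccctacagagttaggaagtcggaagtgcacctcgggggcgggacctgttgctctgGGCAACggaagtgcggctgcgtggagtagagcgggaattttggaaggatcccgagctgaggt
Atm: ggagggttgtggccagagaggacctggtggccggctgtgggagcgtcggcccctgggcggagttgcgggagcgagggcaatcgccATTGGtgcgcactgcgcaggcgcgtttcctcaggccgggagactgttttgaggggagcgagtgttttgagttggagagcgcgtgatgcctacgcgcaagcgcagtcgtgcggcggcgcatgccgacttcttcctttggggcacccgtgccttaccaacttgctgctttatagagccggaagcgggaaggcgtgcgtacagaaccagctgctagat
No motif was common to these 4 windows. Rad9b held a CCAAT box and an X-box match, Fanci an X-box match, Topbp1 an E2F-like match and Atm a CCAAT box, and the Atr window held none of these letters. Of the other members with sKO wholly below WT, the Rpa2, Brca1 and Fanca windows held CCAAT, Brca1 also the CRE letters, and the Rad1 window none of the 5 motifs.

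A RefSeq window was matched for 29 of the 38 members. E2F-like letters stood in 5 of 29 member windows (17.2%) and in 5.27% of all 27025 windows of the same length. CCAAT stood in 18 member windows (62.1%) and in 37.9% of all windows, the X-box letters in 4 (13.8%) against 12.7%, the CRE letters in 4 (13.8%) against 7.64%, and the MYB-like letters in 2 (6.9%) against 23.2%. Base composition differed too, with a median GC content of 60% in the member windows and 52.7% in all windows, and its part in these shares was not tested. In Fancm the X-box match and the CCAAT box share 1 base (GGCAACCAAT). These matches are descriptions of letters and not binding sites.

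Ratios within a library do not depend on how libraries are scaled, and 3 ratios of paired checkpoint genes were tested with an exact two-sided permutation test, which with 3 against 3 libraries cannot go below p = 0.1. Reads per Rad9a read numbered 3.47, 3.23 and 2.76 for Rad9b in the WT libraries and 1.84, 1.79 and 2.3 in the sKO libraries. The ratio was lower in each sKO library than in each WT library, with a log2 difference of -0.68 (1.6-fold lower), with the smallest p that this exact permutation test allows, 0.1 (0.15 adjusted over 3 ratios). For Atr over Atm the ratio was 2.94, 2.55 and 2.28 in WT and 1.69, 1.75 and 2.02 in sKO, again without overlap. That difference was -0.51 on the log2 scale (1.42-fold lower) with an exact permutation p of 0.1, or 0.15 adjusted. Chek1 over Chek2 was 2.46, 1.48 and 1.78 in WT and 2.09, 1.71 and 2.1 in sKO, and the groups overlapped (log2 difference 0.07, exact permutation p = 0.9). The ratios of the apical kinases and of the RAD9 paralogs separated the libraries by genotype, and that of the effector kinases did not. Atr, Rad9b and Rad9a each did so by themselves, as did 20.2% of all genes tested, so these ratios are not separate evidence. The share of other gene pairs that separate the genotypes was not computed.

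**Figure D3:**
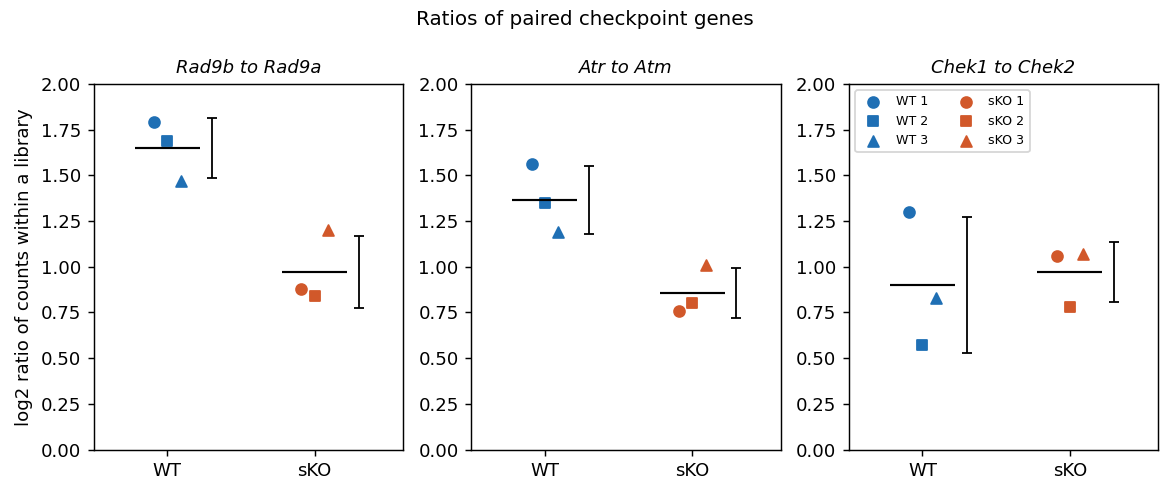
Log2 ratio of counts of paired checkpoint genes within each library, with 3 points per genotype, the mean as a horizontal line and the SD as a bar. Rad9b to Rad9a and Atr to Atm separate the genotypes, with means of 1.65 against 0.98 and 1.37 against 0.86, while Chek1 to Chek2 overlaps, with means of 0.90 and 0.97.

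Counting may mix genes that overlap, because neither the strand setting nor the treatment of shared reads is given in the sources used here. In the GENCODE annotation of GRCm38, Pptc7 on the opposite strand covers 23.18% of the exonic bases of Rad9b. Pptc7 itself had 53.2 CPM (WT) and 54.6 CPM (sKO) on average (log2 fold change 0.04, unadjusted p = 0.72 in edgeR). Polg covers 15.95% of Fanci (log2 fold change -0.13), and Ppp1ca covers 9.53% of Rad9a (log2 fold change 0.12). Fsbp and Gm11832 share 35.89% of the exonic bases of Rad54b and stood at 0.526 and 4.16 CPM in WT. Trex1, which shares 16.04% of the exonic bases of Atrip on the same strand, had a count of 0 in all 6 libraries. The part of these overlaps in the member values was not tested, and the absence of Atrip counts cannot be read as absence of its RNA.

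The ATM side showed no gene lower or higher at an unadjusted p under 0.05, and its groups overlapped for all 5 genes. Over all genes, 8.54% were lower and 5.06% higher at that p, and 20.2% had groups without overlap. With these shares, 5 genes are too few for such counts to set the ATM side apart. Atm, the kinase of the double-strand break response, was at 124, 107 and 127 CPM in the WT libraries and at 119, 107 and 129 CPM in the sKO libraries. Its log2 fold change was -0.01 (95% interval -0.24 to 0.22), an interval that overlapped that of Atr (-0.84 to -0.20). Chek2, the effector kinase of ATM, stood at 15.4, 16.7 and 15.9 CPM in WT and 15.4, 16.8 and 17.4 CPM in sKO (log2 fold change 0.05, 95% interval -0.24 to 0.34). The break sensors Mre11a (60.4 ± 4.36 against 59.4 ± 5.64 CPM), Rad50 (81.8 ± 4.73 against 76.2 ± 1.19 CPM) and Nbn (37.3 ± 7.09 against 39.8 ± 0.593 CPM; SD, n = 3 each) had log2 fold changes of -0.02, -0.10 and 0.09. The median over the 5 genes was -0.01.

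Among the 6 Fanconi members, the monoubiquitinated pair had the lowest estimates. Of the other Fanconi genes read further on, Ube2t (-0.73) and Fancg (-0.35) had estimates below those of the pair. Fancd2 stood at 91.6, 77.2 and 79.2 CPM in the WT libraries and at 66.5, 61.2 and 68.6 CPM in the sKO libraries, with a gap between the groups. Its log2 fold change was -0.34 (SE 0.10, 95% interval -0.56 to -0.11), with an unadjusted p of 0.00727 and an adjusted p of 0.156 in edgeR and 0.0816 in DESeq2. Its partner Fanci stood at 39.3, 34.5 and 32.1 CPM in WT and at 29.1, 28.2 and 28.1 CPM in sKO. The 3 sKO libraries were close together and all below WT, and the log2 fold change was -0.31 (95% interval -0.56 to -0.06, edgeR adjusted p = 0.247). Without WT library 1 it was -0.23, with an unadjusted p of 0.0812, and without sKO library 2 it was -0.30, with an unadjusted p of 0.0625.

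The other Fanconi members, of the core complex that monoubiquitinates this pair, had 95% intervals that include 0. This does not hold for the whole complex, because its subunit gene Fancg, which is not a member, was at -0.35 (95% interval -0.67 to -0.02). Fanca was at 62.5, 68.9 and 63.9 CPM in WT and at 59.4, 57.2 and 61.9 CPM in sKO, a narrow separation with a log2 fold change of -0.13 (95% interval -0.34 to 0.08). Fancl, the ubiquitin ligase subunit, was at 13.9 ± 2.57 and 14.4 ± 0.882 CPM, and the translocase gene Fancm at 30.3 ± 2.49 and 28.7 ± 2.38 CPM in WT and sKO. Fancb, an X-linked subunit gene, was the scarcest tested member at 2.14 ± 0.841 and 2.73 ± 1.03 CPM. Its estimate of 0.35 had the widest interval of the members, from -0.46 to 1.16. The Fanconi median was -0.10 over 6 genes, and it was -0.19 without sKO library 3. At an unadjusted p under 0.05, 2 of the 6 (33.3%) were lower, against 8.54% of all genes, and edgeR called 0, against 1.30%.

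Within homologous repair, the resection and RPA genes had log2 fold changes between -0.24 (Blm) and 0.16 (Exo1). Rpa2, a subunit of the single-strand binding complex, stood at 128, 126 and 124 CPM in the WT libraries and at 118, 121 and 116 CPM in the sKO libraries. The groups did not overlap, yet the log2 fold change was only -0.09 (95% interval -0.27 to 0.09). Exo1, the resection nuclease, was at 56.4, 56.6 and 55.6 CPM in WT and at 60.1, 65.3 and 63.2 CPM in sKO, the higher group being sKO (log2 fold change 0.16, 95% interval -0.04 to 0.36). Rpa1 was at 118 ± 2.45 and 117 ± 2.85 CPM and Rpa3 at 19 ± 1 and 21 ± 0.932 CPM in WT and sKO. The resection factor gene Rbbp8 and the helicase gene Blm had log2 fold changes of -0.11 and -0.24, and their groups overlapped.

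Brca1, which promotes resection, was at 66.4, 68.6 and 70.7 CPM in the WT libraries and at 65.8, 56.1 and 62 CPM in the sKO libraries. WT library 1 and sKO library 1 lay within 1 CPM of each other, and the log2 fold change was -0.16 (95% interval -0.38 to 0.05, edgeR adjusted p = 0.513). Its partners Bard1 and Palb2 had log2 fold changes of -0.06 and -0.07 with overlapping groups. The 5 other repair genes overlapped between the groups in every case, with log2 fold changes of -0.11 for Rad51b, -0.17 for Rad51c, 0.06 for Rad51d, -0.35 for Xrcc2 and 0.10 for Xrcc3. Of these, Xrcc2 had the smallest unadjusted p, 0.0764.

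Rad54b, a RAD54-family translocase gene, was the repair gene with an unadjusted p under 0.05. It stood at 36.6, 26.2 and 28.8 CPM in the WT libraries and at 25, 20.6 and 25.2 CPM in the sKO libraries, a gap of about 1 CPM between WT library 2 and sKO library 3. The log2 fold change was -0.37 (SE 0.15, 95% interval -0.70 to -0.04, unadjusted p = 0.031, edgeR adjusted p = 0.299). Without WT library 1 it was -0.22 with an unadjusted p of 0.145, and without sKO library 2 it was -0.28 with an unadjusted p of 0.133. Rad54l, its paralog, averaged 38.4 ± 1.11 CPM (WT) and 35.8 ± 1.83 CPM (sKO), a log2 fold change of -0.10. Over all 16 repair genes the median was -0.09, with 12 lower and 4 higher estimates. That median was -0.03 without sKO library 2, -0.05 without WT library 1 and -0.15 without sKO library 3.

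**Figure D4:**
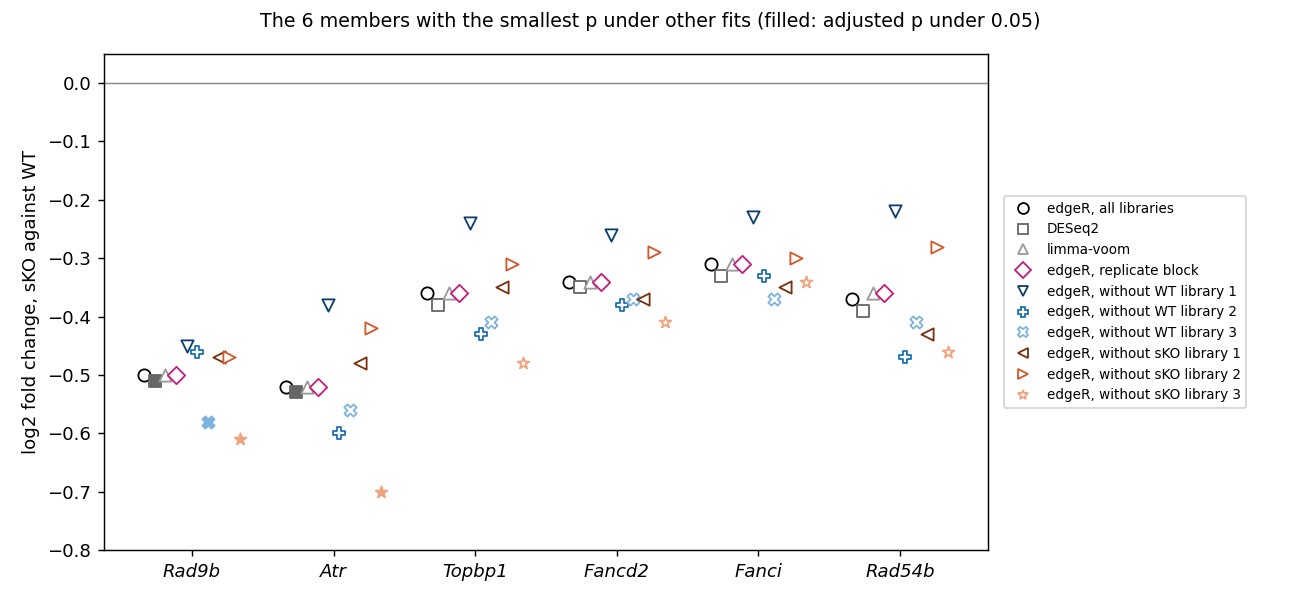
Log2 fold change of the 6 genes with an unadjusted p under 0.05 under edgeR with all libraries, DESeq2, limma-voom, a replicate block and each of 6 fits without 1 library, filled where the adjusted p is under 0.05. All values stay below 0, and the filled points belong to Rad9b and Atr alone.

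To compare abundance between genes, mean WT CPM was divided by the length in kilobases of the transcript with the longest coding sequence. On this scale Rpa2 led with 69.4 CPM per kb, followed by Topbp1 at 47.7, Rpa1 at 40 and Atr at 38.2. Rad9b at 28.1 CPM per kb exceeded Rad9a at 6.98, whereas Hus1b at 2.82 was below Hus1 at 6.4. Atm reached 12.2, Fancd2 15, Brca1 10.4, Chek1 7.97 and Chek2 7.02 CPM per kb, and Fancb was lowest of the tested genes at 0.717. Differences between neighbours in this order were not tested and depend on the transcript chosen.

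Libraries within a genotype were not interchangeable. WT library 1 was the highest of the WT libraries for 24 of 37 members and WT library 2 the lowest for 20, while sKO library 3 was the highest of its group for 23 and sKO library 2 the lowest for 22. The same counts were not made over all genes, so this order cannot be read as particular to the members. The ATR-side median relative to the WT mean was 0.17, -0.13 and -0.06 for WT, library by library, and -0.29, -0.19 and 0.06 for sKO (log2 scale), so sKO library 3 overlapped WT. Fanconi medians were 0.16, -0.12 and -0.02 in WT and -0.16, -0.14 and -0.05 in sKO, and ATM-side medians 0.07, -0.10 and 0.02 against -0.00, -0.07 and 0.12. On leaving out WT library 1 and sKO library 3 together, a pair chosen after seeing the data, edgeR called Atr, Topbp1 and Rad9b (8.11% of the members) and 3.94% of all genes. Leaving out both libraries numbered 1 removes the library with the highest sum of epididymis markers, while WT library 2 (16.3 CPM) and sKO library 2 (11.7 CPM) stay in. edgeR then called 0 members and 0.843% of all genes. At an unadjusted p under 0.05, 2 members (5.41%) were lower, against 5.73% of all genes, and the Atr and Rad9b estimates were -0.34 and -0.42.

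Spermatocyte markers also differed between the libraries. Of 8 pachytene markers, 7 were tested and all 7 had lower estimates (median -2.95), against 44.7% of all genes. edgeR called 4 lower, Acr, Ybx2, Nme5 and Tekt1, against 1.27% of all genes. DESeq2 called all 7 lower, against 3.82% of all genes. limma-voom called 0, against 0.0795% of all genes lower, and gave those 4 genes adjusted p-values of 0.0583, 0.0635, 0.0931 and 0.0632 in that order. With a replicate block in edgeR their adjusted p-values ran from 0.0604 to 0.315. Their summed level was 1202, 849 and 568 CPM for WT, library by library, and 191, 223 and 343 CPM for sKO, and Pgk2 was under 1 CPM throughout. Early prophase markers summed to 1769, 1039 and 1191 CPM in WT and 826, 818 and 1299.8 CPM in sKO. Their median was -0.41, edgeR called 0 of 8 and DESeq2 called Meiob. At an unadjusted p under 0.05, 2 (25%) were lower, against 8.54% of all genes. WT library 1 and sKO library 3, the highest of their groups for most members, were also the highest of their groups in both of these sums. The pachytene sum was lowest in WT library 3 and sKO library 1. The early prophase sum was lowest in the libraries numbered 2 of both groups, where most members were also lowest. The part of spermatocyte content in the member values was not tested.

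Of 6 division markers, Cdc20 fell by 0.64 on the log2 scale (adjusted p = 0.0314 in edgeR), a call lost in limma-voom (adjusted p = 0.0589) and with a replicate block (adjusted p = 0.117). The other 5 were not called, with log2 fold changes from -0.30 for Top2a to -0.03 for Ccnb1. The sum of the 6 was 955 to 1069 CPM in WT and 784 to 866 CPM in sKO. Sertoli cell markers summed to 1257 to 1398 CPM in WT and 1509 to 1669.9 CPM in sKO, with 5 of 8 higher at an unadjusted p under 0.05 and 0 called by edgeR, DESeq2 or limma-voom. At that p, 8.54% of all genes were lower and 5.06% higher, and these shares apply beside each count here. Medians were 0.14 for 9 markers of undifferentiated spermatogonia (0 called by edgeR, 1 lower and 1 higher at an unadjusted p under 0.05, and Id4 lower by DESeq2) and 0.02 for 5 of differentiating spermatogonia (0 called by edgeR, DESeq2 or limma-voom, 1 lower at an unadjusted p under 0.05). The medians of the other lists were 0.32 for Leydig cells, 0.29 for peritubular myoid cells, 0.37 for macrophages, 0.25 for endothelial cells, -0.29 for red blood cells, 2.82 for epididymis and -0.04 for adipose tissue, and 0.13 for the only tested spermatid marker. edgeR, DESeq2 and limma-voom called 0 genes of these last 8 lists, and 2 Leydig cell genes were higher at an unadjusted p under 0.05.

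**Figure D5:**
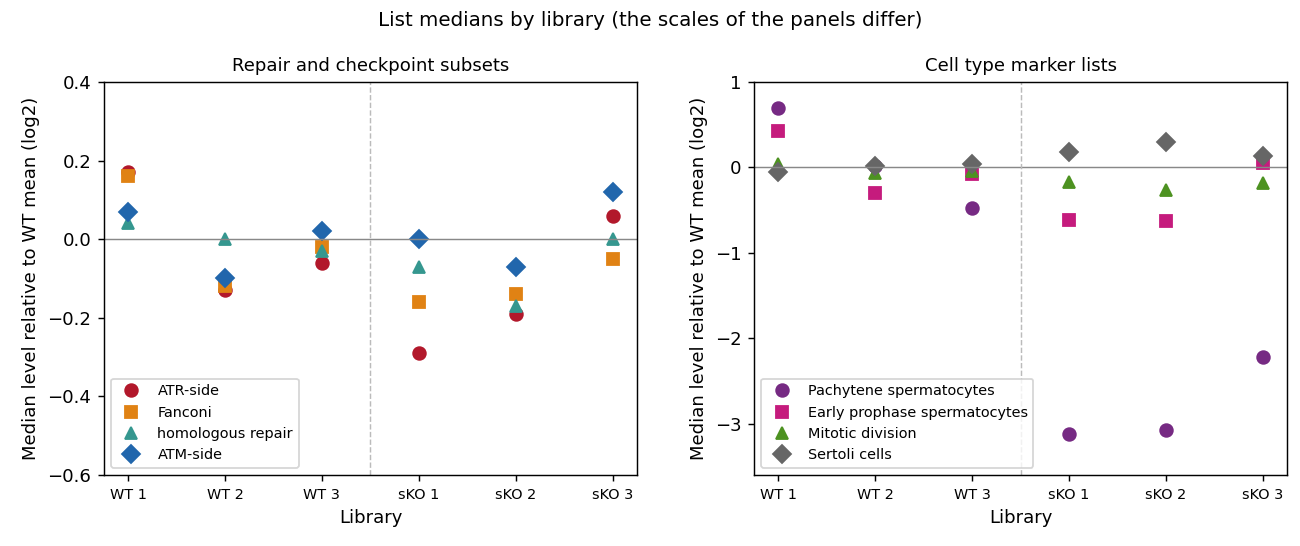
Median level of each list in each library relative to the WT mean (log2), for repair and checkpoint subsets on the left and marker lists on the right, on different scales. Pachytene markers lie between -3.12 and -2.22 in sKO, whereas the ATR-side medians lie between -0.29 and 0.06 there, and in WT library 2 the pachytene point at 0.02 is hidden behind the Sertoli point.

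Further genes of these pathways were read from 3 other lists. Over all genes tested, edgeR called 1.30%, and 8.54% were lower and 5.06% higher at an unadjusted p under 0.05. Of 35 other homologous repair genes, 0 were called by edgeR, and the median was -0.10. At that unadjusted p, 5 (14.3%) were lower and 1 was higher. The repair gene Swi5 averaged 189.6 ± 22.1 CPM (WT) and 139 ± 5.3 CPM (sKO; SD, n = 3 for both), a log2 fold change of -0.45 with an adjusted p of 0.0599 in edgeR and 0.00389 in DESeq2. The nuclease gene Eme1 and the nuclease scaffold gene Slx4 had log2 fold changes of -0.40 and -0.30, and Brcc3, a deubiquitinase of the BRCA1-A complex, of 0.39, with edgeR adjusted p-values of 0.206, 0.236 and 0.211.

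Among 17 other Fanconi genes, 0 were called by edgeR and the median was -0.06. At an unadjusted p under 0.05, 2 (11.8%) were lower, against 8.54% of all genes. Ube2t, the ubiquitin-conjugating enzyme that modifies FANCD2, stood at 96.1, 71.1 and 63.6 CPM in WT and 40.7, 41.5 and 57.1 CPM in sKO. The groups did not overlap, and its log2 fold change was -0.73 (95% interval -1.12 to -0.34, adjusted p = 0.0793 in edgeR and 0.00224 in DESeq2). The core subunit gene Fancg, the nuclease subunit gene Ercc1 and the deubiquitinase cofactor gene Wdr48 had log2 fold changes of -0.35, -0.22 and -0.18. Their edgeR adjusted p-values were 0.327, 0.433 and 0.46, and the unadjusted edgeR p of Fancg was 0.0379.

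Of 28 other checkpoint genes, 27 were tested, 0 were called by edgeR and the median was -0.03. At an unadjusted p under 0.05, 3 (11.1%) were lower and 1 was higher, against 8.54% and 5.06% of all genes. H2ax was listed with a count of 0 in all 6 libraries and was not tested, and this, as for Atrip, cannot be read as absence of its RNA. Mdc1, the adaptor that binds phosphorylated H2AX, stood at 419, 347 and 304 CPM in WT and 214, 208 and 285 CPM in sKO, with a log2 fold change of -0.60 (adjusted p = 0.0807 in edgeR and 0.00372 in DESeq2). Pkmyt1, a kinase that restrains CDK1, had a log2 fold change of -0.56 (adjusted p = 0.15 in edgeR and 0.0421 in DESeq2). Trp53 averaged 90.7 ± 3.1 CPM (WT) and 105 ± 2.86 CPM (sKO), and its log2 fold change of 0.21 had an adjusted p of 0.312 in edgeR. For the kinase gene Smg1 the log2 fold change was -0.23.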

How the data were processed

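Poly(A) RNA of 3 WT and 3 sKO testes' libraries was sequenced, and the authors deposited 1 table of raw read counts per gene symbol. Per the submitters' processing notes, reads were trimmed with Trim Galore, aligned with HISAT2 to mm39 and counted with featureCounts, and the sources used here give no versions and no strand or multi-mapping settings. The table's columns were matched to the labels by genotype word and replicate number.

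Counts were filtered with filterByExpr, scaled by TMM and fitted with edgeR 4.0.16 (robust quasi-likelihood F test, R 4.3.3), and p-values were adjusted by Benjamini-Hochberg over 18860 genes with a threshold of 0.05. Alternatives were DESeq2 1.42.0, limma-voom (limma 3.58.1, robust), DESeq2 size factors, no filter, a replicate block and leaving out libraries. The scripts' fit was tested on simulated data. Intervals are at 95%. Depth and 3 libraries per group limit the precision.

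The members, the 3 further pathway lists and the 14 marker lists were chosen with earlier results of these data known. Values in every library are given for members with an unadjusted p under 0.05, with groups that do not overlap, or on a short list of key genes (Brca1, Atm, Atr, Chek1, Chek2, Rad9a, Rad9b, Hus1, Hus1b and Fancd2). In each further list up to 4 tested genes with the smallest p are named. Transcript lengths and exonic overlaps came from GENCODE on GRCm38, which is not the counting build, and promoter windows from RefSeq.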

Additional observations from a re-analysis of the deposited data

How the results depend on the processing

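Of 419 comparisons of a single member with an alternative, 383 kept the direction and the side of the threshold, 11 passed the threshold only under the alternative and 25 changed sign, none of these with an adjusted p under 0.05 in either fit. The number of genes called, 246 in edgeR, was 777 with DESeq2, 15 with limma-voom, 1146 without the low-count filter, 0 to 655 when 1 library was left out (0 without WT library 2 and 655 without sKO library 3), and, chosen after seeing the data, 746 without WT library 1 and sKO library 3 and 160 without both libraries numbered 1. Members called, 0 in edgeR, were 2 with DESeq2 (5.41%, against 4.12% of all genes). Without the filter 3 were called, Atr, Topbp1 and Rad9b (8.11%, against 3.27% of 35085 genes). Without WT library 1 and sKO library 3 there were 3 (8.11%, against 3.94%). When 1 library was left out there were 0 to 2, with 2 (5.41%, against 3.39%) without sKO library 3. Members lower at an unadjusted p under 0.05 were 6 with all libraries (16.2%, against 8.54% of all genes). They were 2 without both libraries numbered 1 (5.41% against 5.73%), 3 without sKO library 2 (8.11% against 6.27%) and 11 without sKO library 3 (29.7% against 11.3%). Without 1 library, the Rif1 log2 fold change ran from -1.30 to -0.97, the ATM-side median from -0.11 to 0.05 and the Chek1 to Chek2 difference from -0.09 (without WT library 2) to 0.27. Sign changes touched 16 members, whose log2 fold changes without 1 library ran from -0.04 to 0.02 for Rpa1, -0.16 to 0.07 for Bard1, -0.33 to 0.03 for Rad51b, -0.02 to 0.12 for Rad51d, -0.04 to 0.20 for Xrcc3, -0.11 to 0.06 for Atm, -0.02 to 0.08 for Chek2, -0.12 to 0.05 for Mre11a. For the other 8 they ran from -0.04 to 0.23 for Nbn, -0.08 to 0.11 for Hus1, -0.17 to 0.10 for Hus1b, -0.37 to 0.02 for Rad17, -0.08 to 0.09 for Clspn, -0.02 to 0.30 for Chek1, -0.02 to 0.57 for Fancb, -0.07 to 0.20 for Fancl. The cause of these shifts was not tested. Depth and 3 libraries a group limit the precision.

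Same-numbered libraries deviated from their group means with correlations of -0.33, 0.12 and -0.26 for numbers 1 to 3. WT library 1 correlated best with sKO library 3 (0.43), not with its own number. Deviations from a group's own mean depend on each other, so these correlations cannot decide whether the replicate numbers pair the libraries. With a replicate block edgeR called 21 genes (0.111%) and 0 members. At an unadjusted p under 0.05, 6 members (16.2%) were lower in that fit, against 7.02% of all genes.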
